A study of Homo sapiens with 9 samples.

Results

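Cholesterol and fatty acid synthesis genes were followed across 3 levels of the transcription factor MYC in P493-6, a human line of B lymphocytes. Their members were chosen by gene symbol from a list of 31 enzymes, regulators and lipid-binding proteins. The list was chosen with earlier results of these data known. Of these, 28 were measured, as 28 of 19775 genes and 64 of 54675 probe sets (a probe set is the group of array probes read together for 1 transcript). CYP51A1 and FADS1 were not named, because their probe sets carry several gene symbols, and FDFT1 was not analysed here. By role, the measured members were 4 regulators, 6 genes of the mevalonate steps, 9 of the sterol steps, 7 of the fatty acid steps and 2 lipid-binding proteins. The first and second enzyme groups are called the 15 sterol genes below.

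Cells build cholesterol from acetyl-CoA, first to mevalonate and isoprenoid units, then to squalene and lanosterol, and last by trimming lanosterol to cholesterol. Fatty acids are built from the same acetyl-CoA, which is carboxylated, lengthened by fatty acid synthase, and then desaturated and elongated. Both branches are known targets of the SREBP transcription factors, encoded by SREBF1 and SREBF2, which SCAP carries out of the endoplasmic reticulum and INSIG1 holds there when sterol is plentiful. MYC is known to drive growth and proliferation in B cells, which need membrane lipid.

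RNA was measured on 9 single-colour Affymetrix arrays, labelled high Myc (n = 4), low Myc (n = 3) and no Myc (n = 2). As background, all P493-6 cells carry a MYC gene that tetracycline represses and an estrogen-dependent EBNA2, the viral protein that keeps such B cells growing. The labels give the MYC level of each group but no agent, dose, time or culture. It is not known whether replicates came from separate cultures, so each p-value reflects array-to-array spread alone, and that spread may be technical. Values are intensities summarised by RMA (a method that removes background, makes array distributions alike and combines the probes of a probe set), given on their linear scale. Differences are log2 values ± SE from limma, and a gene was called at a Benjamini-Hochberg adjusted p under 0.05 over all genes.

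MYC read 12755, 11326, 15404 and 12186 in high Myc, 2126, 2526 and 1443 in low Myc, and 2803 and 416 in no Myc. The library labelled no Myc replicate 1 thus read above every low Myc array, against its label, and directions against no Myc rest on 2 arrays that differ in MYC. Results are therefore given with and without it where a call depends on it. B-cell markers were present (7 of 8 measured), with MS4A1 at 2995 to 10885 and CD79A at 1383 to 7498 over all arrays. Not all moved alike. In high against no Myc 6 were called lower and 0 higher (9.0% and 14.2% of all genes). In low against no Myc 5 were lower and 1 higher, the latter by 3.61 on the log2 scale (8.55% and 11.3% of all genes). The summed intensity of B-cell markers was 8018 to 15471 in high, 9919 to 11403 in low and 26134 to 34690 in no Myc. Summed myeloid markers (6 of 7 measured) were 293 to 355, 259 to 310 and 1547 to 2385, with ITGAM reaching 1480 and LYZ 775 while CD14 (35 to 50), CSF1R (36 to 57) and S100A8 (20 to 28) stayed low on all arrays. Summed adipocyte markers were 324 to 451 and hepatocyte markers 506 to 590 over all arrays. The log2 difference between the GAPDH probe sets at the 3′ and 5′ ends, a sign of RNA quality, was 0.03 to 0.24 in high, 0.01 to 0.15 in low, and 0.25 and 0.42 in no Myc. For ACTB that difference was -0.05 to 0.19 in high, -0.07 to 0.02 in low, and 0.00 and -0.01 in no Myc. The summed B-cell and myeloid markers and the GAPDH values moved with the no Myc group, and the ACTB values did not. The part of these markers and of RNA quality in the differences below was not tested. In bulk RNA, fewer cells of a kind and less RNA per cell cannot be told apart.

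Promoter sequence was examined because the members are held to be co-regulated. The RefSeq promoter table (GRCh38.p14) gave 36 windows for 27 of the listed members, each of 300 bases, with 250 bases before the gene's start and 50 after it. It gave no window for FASN, SQLE, FABP5 and FDFT1. Searched on both strands were the sterol regulatory element core TCACNCCAC, the E-box CACGTG, which MYC with MAX is known to bind, and CCAAT, the element of the NF-Y factor. CCAAT was the common one, in 25 of 36 member windows (69.4%) against 34.6% of all 35116 windows of the table. At least 2 copies were in 17 of 36 (47.2%) against 10.8%. Of the windows of mevalonate and sterol steps, 11 of 20 (55%) held at least 2 copies, and of fatty acid windows 5 of 11 (45.5%). The E-box was in 6 of 36 windows (16.7%, against 7.26% of all), those of SCAP, INSIG1, LSS, SC5D and ELOVL5. The sterol element core was in 1 of 36 windows, that of SREBF2, against 1.13% of all. Only exact matches to these letters were counted, so this count says nothing about other forms of the element or sites outside the windows. Windows of 1 gene overlap in part, and 7 members had several, so these shares are descriptions.

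Stretches of 6 windows are shown, 5′ to 3′ on the gene's strand, with each match in capitals (ATTGG is CCAAT on the other strand). The SREBF2 stretch is shown for the only sterol element core, the SCAP and INSIG1 stretches for an E-box in a regulator, and EBP, NSDHL and MSMO1 as sterol enzymes with several CCAAT copies. Positions are chr22:41832957-41833023 (plus strand) for SREBF2, chr3:47475975-47476014 (minus) for SCAP, chr7:155297693-155297847 (plus) for INSIG1, chrX:48521602-48521802 (plus) for EBP, chrX:152830820-152831003 (plus) for NSDHL and chr4:165327469-165327659 (plus) for MSMO1. The sterol element core of SREBF2 began 133 bases before the gene's start, and the E-boxes of SCAP and INSIG1 began 58 and 55 bases before theirs. In NSDHL a pair of CCAAT matches on opposite strands overlap as CCAATTGG.
SREBF2: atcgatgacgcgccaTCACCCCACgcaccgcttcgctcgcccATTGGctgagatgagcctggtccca
SCAP: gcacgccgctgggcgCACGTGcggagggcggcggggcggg
INSIG1: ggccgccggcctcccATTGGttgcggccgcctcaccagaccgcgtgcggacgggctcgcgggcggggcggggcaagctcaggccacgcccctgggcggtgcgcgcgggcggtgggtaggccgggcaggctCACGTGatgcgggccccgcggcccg
EBP: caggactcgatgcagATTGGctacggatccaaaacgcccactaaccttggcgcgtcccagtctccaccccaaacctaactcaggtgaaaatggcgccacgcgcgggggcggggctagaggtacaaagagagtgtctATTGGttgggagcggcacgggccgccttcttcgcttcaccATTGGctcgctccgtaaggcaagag
NSDHL: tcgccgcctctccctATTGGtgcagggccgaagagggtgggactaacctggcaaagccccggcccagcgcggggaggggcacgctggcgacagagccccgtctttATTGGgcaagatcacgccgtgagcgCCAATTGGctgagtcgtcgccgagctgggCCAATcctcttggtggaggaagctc
MSMO1: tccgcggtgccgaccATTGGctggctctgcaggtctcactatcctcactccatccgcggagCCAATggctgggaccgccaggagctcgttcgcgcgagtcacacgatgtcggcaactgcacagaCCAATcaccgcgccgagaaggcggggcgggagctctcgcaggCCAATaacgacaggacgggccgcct

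With high Myc set against no Myc, 11 of the 28 members were called higher and 0 lower, where 14.2% of all genes were called higher and 9.0% lower. They were SCAP among the regulators, LSS, NSDHL, EBP and DHCR7 among the sterol steps, ACLY, ACACA, FASN, SCD and ELOVL6 among the fatty acid steps, and FABP5. In low Myc against no Myc, 9 members were called higher and 0 lower, against 11.3% and 8.55% of all genes. These were PMVK, LSS, NSDHL, EBP, SC5D, DHCR7, ACACA, FASN and FABP5. Between high and low Myc 1 member was called higher (SCAP) and 1 lower (TM7SF2), against 2.33% and 1.27% of all genes. At an unadjusted p under 0.05, limma gave 0 lower members in high and 1 (ELOVL5) in low against no Myc. The share of all genes at an unadjusted p is not given here, so counts at that threshold, here and below, are descriptions. The median log2 difference of the members was 0.69, 0.51 and 0.03 in these comparisons, where that of all genes was -0.01, 0.00 and 0.00. High and low Myc were set against the same no Myc arrays, so both counts lean on the same 2 arrays. Without the library labelled no Myc replicate 1 the counts of higher members fell to 7 for high and 3 for low Myc, and without no Myc replicate 2 to 6 and 2. Without low Myc replicate 3 they were 13 and 15.

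**Figure D1:**
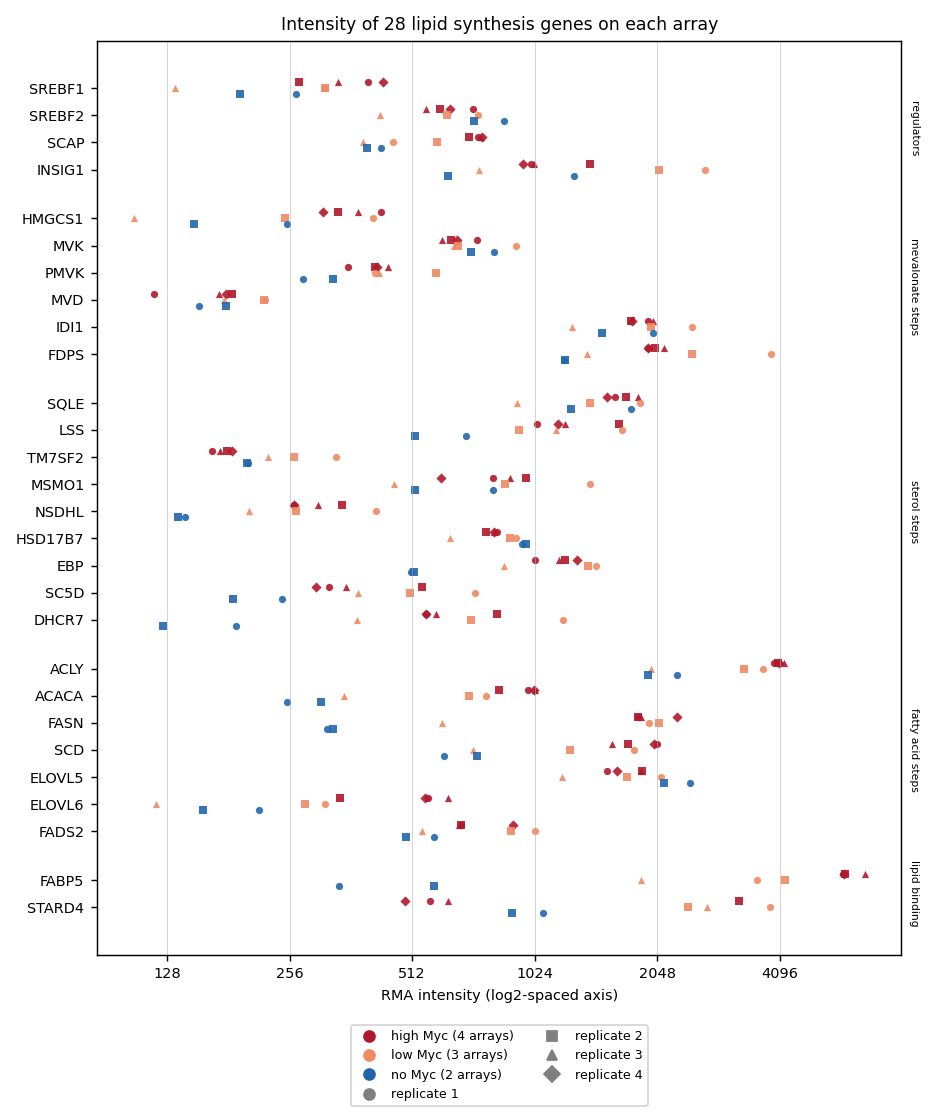
Intensity (horizontal axis, log2-spaced) of the 28 measured members, grouped by role, on each of the 9 arrays; colour gives the Myc group and symbol the replicate number. FASN, DHCR7 and FABP5 lie lowest on both no Myc arrays, and low Myc replicate 3 (triangle) lies lowest of the low Myc arrays in 25 of the 28 members.

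The sterol and fatty acid branches are set side by side here. In high against no Myc, 4 of the 15 sterol genes and 5 of the 7 fatty acid genes were called higher, beside 14.2% of all genes. The median log2 differences were 0.44 and 1.45. In low against no Myc the counts were 6 of 15 and 2 of 7, beside 11.3% of all genes, with medians of 0.42 and 0.57. Between high and low Myc, no fatty acid gene and no sterol gene was called higher, beside 2.33% of all genes. The fatty acid and sterol medians there were 0.53 and -0.03. At an unadjusted p under 0.05 limma gave 4 fatty acid genes (ACLY, ACACA, SCD and ELOVL6) and 0 sterol genes as higher there, and TM7SF2 as lower. No share of all genes stands beside these unadjusted counts, so they are descriptions. The difference between the branches was not tested. When 1 array was left out in turn, the sterol count ranged from 1 to 6 in high and 1 to 8 in low Myc, and the fatty acid count from 2 to 5 and from 0 to 5. With array weights, low against no Myc gave 8 sterol and 5 fatty acid calls. With only the 2 groups compared it gave 3 and 0, and high against no Myc gave 7 sterol calls. The 5 fatty acid calls in low Myc came without low Myc replicate 3, which also gave 8 sterol calls. Either no Myc array left out brought the fatty acid calls in low Myc to 0.

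**Figure D2:**
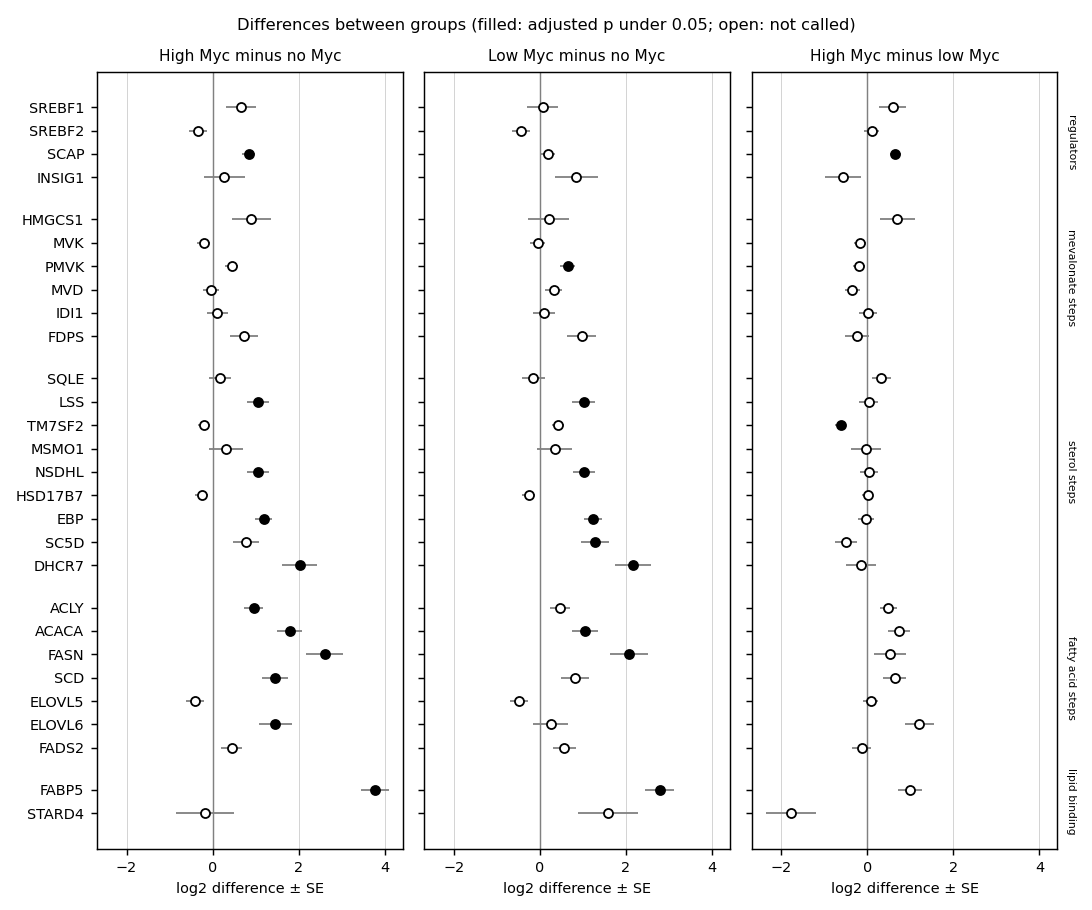
Log2 difference ± SE (horizontal axis) of each member in the 3 comparisons, by role; filled points were called at an adjusted p under 0.05 and open points were not. The fatty acid genes other than ELOVL5 lie right of 0 in high minus no Myc, with FASN at 2.60. In high minus low Myc the points run from -1.77 (STARD4) to 1.21 (ELOVL6), with a median of 0.03.

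Among the regulators, SCAP was higher in high Myc and the other 3 were not called in any comparison. SCAP, the escort of SREBP, read 744, 705, 754 and 761 in high Myc, 460, 589 and 387 in low Myc, and 430 and 397 in no Myc. All 4 high Myc arrays lay above the other 5, which overlapped. It was 1.79-fold higher in high than in no Myc (log2 difference 0.84 ± 0.15, limma, adjusted p = 0.00342), and that call held with each of the 9 arrays left out in turn. The 1.57-fold difference from low Myc (0.65 ± 0.13, adjusted p = 0.0356) was called in only 2 of the 9 fits with an array left out, namely with replicate 2 of high or of low Myc left out, and elsewhere its adjusted p reached 0.118. It was lost with arrays centred on their median (0.0506) and with only the 2 groups compared (0.0628). Low and no Myc did not differ beyond their spread (0.19, adjusted p = 0.568).

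SREBF1, which encodes the SREBP forms tied mostly to fatty acid genes, read 399, 270, 337 and 433 in high Myc, 313, 313 and 134 in low Myc, and 265 and 193 in no Myc. High Myc lay above no Myc on every array, by little, and low Myc spanned both. The log2 difference of high from no Myc was 0.65 ± 0.35 (limma, adjusted p = 0.275).

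SREBF2, tied mostly to cholesterol genes, read 723, 598, 553 and 635 in high Myc, 744, 625 and 427 in low Myc, and 860 and 728 in no Myc. Both no Myc arrays lay above the high Myc arrays, and the difference was not called (-0.34 ± 0.21, adjusted p = 0.348). Of its 3 probe sets, 1 was called lower, with a log2 difference of -0.56 and an adjusted p of 0.0294 over all probe sets. With the median of its probe sets, SREBF2 was called lower in high Myc (-0.39, adjusted p = 0.0114) and in low Myc (-0.37, adjusted p = 0.0231).

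INSIG1, the sterol-sensing anchor of SCAP, read 1001, 1401, 1021 and 957 in high Myc, 2682, 2068 and 747 in low Myc, and 1279 and 626 in no Myc. Low Myc held both the 2 highest arrays and 1 of the 2 lowest, so its SD was 0.98 (n = 3) against 0.25 in high Myc (n = 4). Low minus no Myc was 0.84 ± 0.50 (limma, adjusted p = 0.353). Without low Myc replicate 3 it was 1.40, with an adjusted p of 0.0174.

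Of the 6 mevalonate genes, 0 were called in high against no Myc and PMVK alone in low against no Myc; at an unadjusted p under 0.05 limma gave PMVK and FDPS as higher in each. PMVK, phosphomevalonate kinase, read 356 to 447 in high, 414 to 586 in low and 276 to 327 in no Myc, and was 1.56-fold higher in low than in no Myc (0.64 ± 0.17, limma, adjusted p = 0.0289). Left without low Myc replicate 2 or either no Myc array, that call was lost, with an adjusted p of up to 0.22, as it was with only the 2 groups compared (0.0921). FDPS, farnesyl diphosphate synthase, read 1947 to 2124 in high Myc, 3900, 2489 and 1378 in low Myc, and 1210 and 1214 in no Myc. Every array with Myc thus read above both no Myc arrays, yet neither difference was called (0.73 ± 0.32, adjusted p = 0.164; 0.97 ± 0.34, adjusted p = 0.0816). Without low Myc replicate 3, FDPS was called in both, with 1.36 in low against no Myc and an adjusted p of 0.00173. HMGCS1, the cytosolic HMG-CoA synthase, read 310 to 429, 106 to 410, and 149 to 252, with 0.90 ± 0.46 in high minus no Myc (adjusted p = 0.238). MVK, mevalonate kinase, MVD, which decarboxylates mevalonate diphosphate, and IDI1, the isopentenyl isomerase, had log2 differences of -0.21, -0.03 and 0.11 in that comparison and were not called. The IDI1 probe set used, an x_at type that can read near-identical sequence, makes its value uncertain.

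The sterol steps held the clearest calls of the cholesterol branch. Against no Myc, those of DHCR7, EBP, LSS and NSDHL were close in size in high and low Myc, while SC5D was called in low Myc only. DHCR7, the last reductase on 1 route to cholesterol, read 555, 827, 587 and 555 in high Myc, 1199, 713 and 375 in low Myc, and 189 and 125 in no Myc. No array of either Myc group reached down to no Myc. The mean log2 intensity was 9.28 ± 0.28 (SD, n = 4), 9.42 ± 0.84 (n = 3) and 7.26 ± 0.42 (n = 2). DHCR7 was 4.05-fold higher in high than in no Myc (2.02 ± 0.40, limma, adjusted p = 0.00554) and 4.46-fold higher in low (2.16 ± 0.42, adjusted p = 0.00695). Both calls were lost without no Myc replicate 2, at adjusted p of 0.0636 and 0.0622, and both probe sets of the gene were called in each comparison.

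EBP, the sterol isomerase, read 1024, 1214, 1174 and 1298 in high Myc, 1447, 1388 and 862 in low Myc, and 510 and 516 in no Myc. Its no Myc arrays lay close together and below all others. It was 2.29-fold higher in high (1.19 ± 0.20, limma, adjusted p = 0.00245) and 2.34-fold higher in low Myc (1.23 ± 0.21, adjusted p = 0.00386), and both calls held with each array left out. Of 4 EBP probe sets, 2 were called higher in both comparisons (1.19 and 1.14 in high against no Myc), and the other 2 in neither (0.33 and -0.06). With the median of its probe sets EBP was at 0.74 in high and 0.72 in low Myc, both called.

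LSS, lanosterol synthase, which closes the sterol rings, read 1036, 1649, 1212 and 1170 in high Myc, 1682, 938 and 1157 in low Myc, and 695 and 520 in no Myc. The groups with Myc overlapped each other and not no Myc. LSS was 2.07-fold higher in high (1.05 ± 0.25, limma, adjusted p = 0.0153) and 2.03-fold higher in low Myc (1.02 ± 0.27, adjusted p = 0.0263). The first call was lost without no Myc replicate 2 (adjusted p = 0.14), and the second without that array, the library labelled no Myc replicate 1 or low Myc replicate 1 (up to 0.181). Both were lost with the median of its 3 probe sets (0.86 and 0.80, adjusted p = 0.197 and 0.284), and the second with only the 2 groups compared (0.0661).

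NSDHL, which takes part in removing methyl groups from the sterol ring, read 263, 344, 301 and 262 in high Myc, 418, 266 and 203 in low Myc, and 142 and 136 in no Myc. Again no array with Myc fell to the no Myc level. NSDHL was 2.09-fold higher in high (1.06 ± 0.25, limma, adjusted p = 0.0128) and 2.03-fold higher in low Myc (1.02 ± 0.26, adjusted p = 0.0234). Its other probe set, at 1.09 and 1.13, was called in neither comparison (limma, adjusted p = 0.0649 and 0.0768 over all probe sets). Leaving out either no Myc array ended both calls, with adjusted p of up to 0.0849 and 0.118, and the low Myc call was lost with only the 2 groups compared (0.0845).

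SC5D, the sterol desaturase, read 319, 540, 352 and 298 in high Myc, 732, 506 and 376 in low Myc, and 245 and 186 in no Myc. Low and high Myc overlapped, and both lay above no Myc on every array. SC5D was 2.42-fold higher in low than in no Myc (1.28 ± 0.32, limma, adjusted p = 0.0201), a call lost without low Myc replicate 1 or either no Myc array (up to 0.14). With the median of its probe sets that difference was 0.74, still called. High minus no Myc was 0.78 ± 0.30 and was not called (adjusted p = 0.106), and high minus low Myc was -0.50 (adjusted p = 0.422).

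TM7SF2, a sterol reductase, was the only member called lower in high than in low Myc with all arrays. It read 165, 180, 173 and 185 in high Myc, 332, 263 and 226 in low Myc, and 202 and 201 in no Myc, so the high Myc arrays were the 4 lowest. The difference was 1.54-fold (-0.62 ± 0.13, limma, adjusted p = 0.0351), and it was called in only 2 of the 9 fits with an array left out, namely with high Myc replicate 2 or replicate 3 of low Myc left out, and elsewhere its adjusted p reached 0.105. With only the arrays of both groups compared it was not called (0.0635). SQLE, squalene epoxidase, MSMO1, the sterol methyl oxidase, and HSD17B7, a sterol ketone reductase, were called in no comparison. Their log2 differences of high from no Myc were 0.17, 0.31 and -0.25. HSD17B7 is read by an x_at probe set and has a near-identical pseudogene, so its value is uncertain; with quantile normalization repeated it was called lower in high than in no Myc (-0.43, adjusted p = 0.0191).

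FASN, fatty acid synthase, had the largest difference from no Myc in the fatty acid branch by the probe set of highest mean. It read 1837, 1837, 1869 and 2288 in high Myc, 1951, 2067 and 605 in low Myc, and 316 and 327 in no Myc. Low Myc replicates 1 and 2 lay within the high Myc range, and replicate 3 lay between that range and no Myc. The mean log2 intensity was 10.93 ± 0.15 (SD, n = 4), 10.39 ± 1.0 (n = 3) and 8.33 ± 0.03 (n = 2). FASN was 6.06-fold higher in high than in no Myc (2.60 ± 0.43, limma, adjusted p = 0.00215), with each array left out in turn too. It was 4.19-fold higher in low Myc (2.07 ± 0.45, adjusted p = 0.0114), lost without either no Myc array (up to 0.0831) or with only the 2 groups compared (0.0627), and 2.64 on the log2 scale without low Myc replicate 3 (adjusted p = 0.000134). Its second probe set, of the x_at type, was not called in either comparison (0.33 and 0.20). By probe-set median per gene, FASN was at 1.47 in high and 1.13 in low against no Myc, still called, and in high Myc below SCD (2.49) and ACACA (2.11).

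ACACA, acetyl-CoA carboxylase, which commits acetyl-CoA to fatty acids, read 984, 837, 1028 and 1018 in high Myc, 776, 705 and 348 in low Myc, and 252 and 306 in no Myc. The groups did not overlap and fell in the order high, low, no Myc. It was 3.46-fold higher in high than in no Myc (1.79 ± 0.29, limma, adjusted p = 0.00187), with every array left out in turn as well. In low Myc it was 2.07-fold higher than in no Myc (1.05 ± 0.30, adjusted p = 0.0385), but called in only 2 of the 9 fits with an array left out, namely with high Myc replicate 2 or replicate 3 of low Myc left out (1.41, adjusted p = 0.00052, in the second), and reaching 0.238 in the others. The low Myc call was lost too with the median of probe sets (0.0607) and with only the 2 groups compared (0.131). Adjusted over all probe sets, neither ACACA probe set was called in low against no Myc (limma, adjusted p = 0.0534 and 0.102). High minus low Myc was 0.74 ± 0.25 and was not called (adjusted p = 0.16).

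SCD, which introduces the double bond of oleate, read 2040, 1731, 1586 and 2011 in high Myc, 1797, 1248 and 724 in low Myc, and 613 and 738 in no Myc. High Myc lay above no Myc throughout, and low Myc replicate 3 lay within the no Myc range. SCD was 2.72-fold higher in high than in no Myc (1.45 ± 0.30, limma, adjusted p = 0.00714), lost when the library labelled no Myc replicate 1 was left out (0.0781), and its other 3 probe sets were called as well, at 2.67, 2.43 and 2.13. Low minus no Myc was not called (0.81, adjusted p = 0.123), but was without low Myc replicate 3 (1.15, adjusted p = 0.00491).

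ELOVL6, the elongase of saturated fatty acids, read 561, 341, 627 and 550 in high Myc, 313, 280 and 120 in low Myc, and 215 and 157 in no Myc. High Myc stood above the other groups, which overlapped. It was 2.76-fold higher in high than in no Myc (1.46 ± 0.39, limma, adjusted p = 0.0236), lost on leaving out any of high Myc replicates 1, 3 and 4 or a no Myc array (up to 0.171). High minus low Myc was 1.21 ± 0.34 and was not called (adjusted p = 0.0955), except without high Myc replicate 2 (1.40, adjusted p = 0.0483). Low and no Myc differed by 0.25 (adjusted p = 0.825). Of the ELOVL6 probe sets, those at 1.46 and 1.5 in high against no Myc were called. The remaining one, at 0.58, was not (limma, adjusted p = 0.0773 over all probe sets).

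ACLY, which makes cytosolic acetyl-CoA from citrate, read 3970 to 4200 in high Myc, 1971 to 3723 in low Myc, and 1940 to 2290 in no Myc. It was 1.93-fold higher in high than in no Myc (0.95 ± 0.22, limma, adjusted p = 0.0129), lost without either no Myc array (up to 0.108), and all 3 of its probe sets were called. In low Myc it was called only without low Myc replicate 3 (0.75, adjusted p = 0.00275) or with array weights (0.67, adjusted p = 0.0334). FADS2, the delta-6 desaturase of polyunsaturated fatty acids, read 668 to 904, 541 to 1023, and 495 to 579, with 0.44 in high (adjusted p = 0.293) and 0.57 in low Myc (adjusted p = 0.19). ELOVL5, the elongase of polyunsaturated fatty acids, had negative differences of -0.41 in high and -0.49 in low Myc, which were not called (adjusted p = 0.223 and 0.166). With quantile normalization repeated ELOVL5 was called lower in both (-0.61 and -0.59, adjusted p = 0.00814 and 0.0142), and likewise with the median of its 4 probe sets (-0.35 and -0.40).

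FABP5, a carrier of fatty acids in the cytosol, had the largest difference of all members. It read 5850, 5925, 6626 and 5872 in high Myc, 3595, 4214 and 1863 in low Myc, and 338 and 580 in no Myc, with no overlap between groups. It was 13.7-fold higher in high than in no Myc (3.77 ± 0.32, limma, adjusted p = 0.000137) and 6.88-fold higher in low (2.78 ± 0.33, adjusted p = 0.000916), with each array left out in turn too. High minus low Myc was 0.99 ± 0.28 and was not called (adjusted p = 0.0925), but was with array weights (0.87, adjusted p = 0.0401). FABP5 has many pseudogenes, so its probe set may read near-identical copies.

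STARD4, a soluble carrier of cholesterol, was split by a single array. It read 567, 3252, 626 and 492 in high Myc, 3880, 2438 and 2719 in low Myc, and 1074 and 902 in no Myc. High Myc replicate 2 lay within the low Myc range, and the other 3 high Myc arrays were the lowest of all. With all arrays no difference was called (high minus low -1.77 ± 0.59, limma, adjusted p = 0.153). Without high Myc replicate 2, high Myc was lower than low Myc (-2.40, adjusted p = 0.000338) and than no Myc (-0.82, adjusted p = 0.0234), and low Myc was higher than no Myc (1.58, adjusted p = 0.00148).

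**Figure D3:**
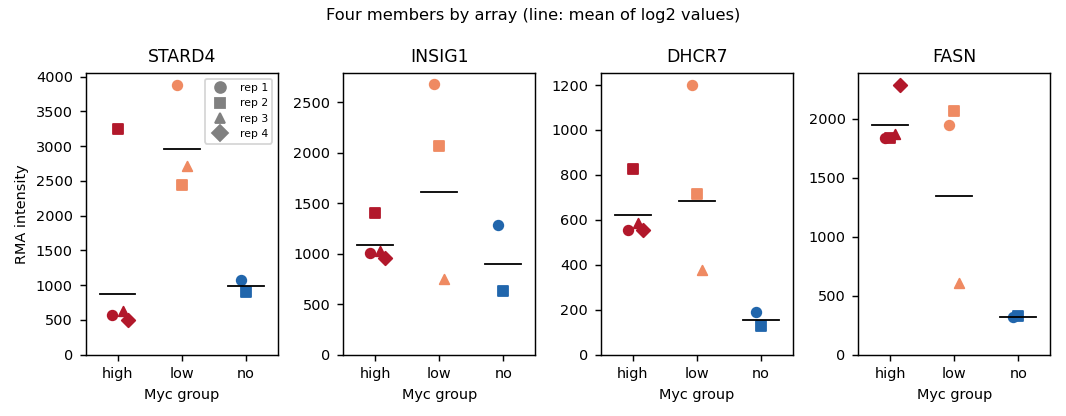
RMA intensity (vertical axis, linear, from 0) of STARD4, INSIG1, DHCR7 and FASN on each array by Myc group; points are arrays, symbols replicate numbers and lines the means of log2 values. STARD4 reads 3252 on high Myc replicate 2 against 492 to 626 on the other high Myc arrays, and low Myc replicate 3 is lowest of its group for INSIG1, DHCR7 and FASN.

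The order of the group means varied over the members. In 12 of 28 the order was high, low, no Myc, and in 8 it was low, high, no Myc. The other 8 took 4 further orders, with no Myc highest in SREBF2, HSD17B7, ELOVL5 and MVK. All fatty acid genes except ELOVL5 and FADS2 had the first order, as had LSS, NSDHL, HMGCS1 and IDI1 of the cholesterol branch. The second order was that of EBP, SC5D, DHCR7, MSMO1, PMVK and FDPS of that branch, and of INSIG1 and FADS2. These orders are descriptions, since only SCAP and TM7SF2 were called between high and low Myc. Across the 64 probe sets, 20 were called higher and 1 lower in high against no Myc (9.24% and 7.79% of all probe sets), and 10 and 1 in low against no Myc (6.73% and 7.66%), the lower one being of ELOVL5. Between high and low Myc 0 of 64 were called in either direction, against 1.04% higher and 0.525% lower of all probe sets, so SCAP and TM7SF2 were called per gene and not per probe set. At an unadjusted p under 0.05 limma gave 10 probe sets as higher and 2 as lower there. The shares of all probe sets above are at an adjusted p and are no background for these unadjusted counts. No gene had calls in both directions.

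The members differed most among the low Myc arrays. Low Myc replicate 1 was highest of its group in 24 of 28 members and replicate 3 lowest in 25 of 28, where these arrays took those places in 36.2% and 38.4% of all genes. Replicate 3 was lowest in all 7 fatty acid genes and in 13 of the 15 sterol genes, and highest in 0 members. Relative to the group mean, the median deviation of replicate 3 was -0.48 on the log2 scale over sterol and -0.70 over fatty acid genes, and that of replicate 1 was 0.46 and 0.43, while over all genes they were -0.01 and 0.03. The SD of low Myc had a median of 0.50 over the members and 0.18 over all genes, and exceeded the latter in 28 of 28. In high Myc the medians were 0.16 and 0.15, and in no Myc 0.18 and 0.12. MYC itself was lowest on low Myc replicate 3, at 1443 against 2126 and 2526, and its part in these values was not tested.

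**Figure D4:**
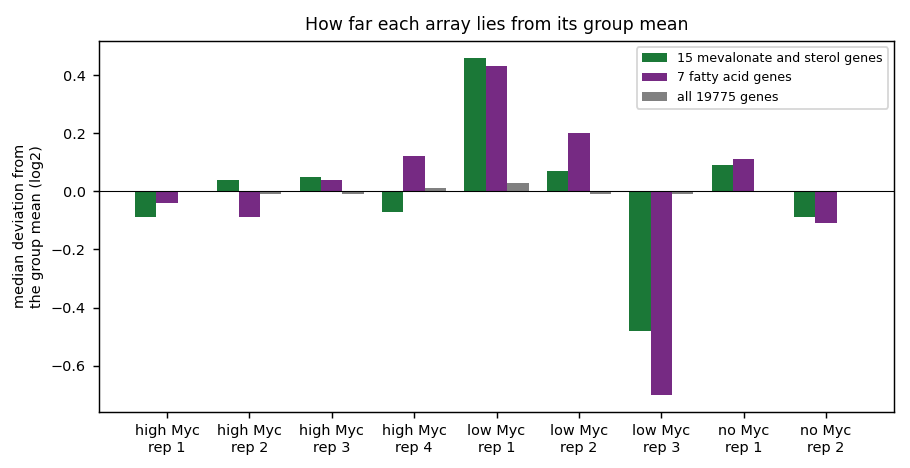
Median log2 deviation of each array from its group mean (vertical axis) for the 15 sterol genes, the 7 fatty acid genes and all 19775 genes. Low Myc replicate 1 stands at 0.46 and 0.43 and replicate 3 at -0.48 and -0.70, while all genes lie between -0.01 and 0.03 on every array.

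Other genes of lipid synthesis, from a list of 32 with 28 measured, were called higher in 7 cases and lower in 1 in high against no Myc (14.2% and 9.0% of all genes). In low against no Myc 8 were higher and 1 lower (11.3% and 8.55% of all genes), and between high and low Myc 1 was higher (MBTPS1, 0.47, limma, adjusted p = 0.0317; 2.33% of all genes). Their medians were 0.32, 0.21 and 0.09. TMEM97, an endoplasmic reticulum protein tied to sterol handling, read 2144 to 2755 in high, 1390 to 2173 in low, and 392 and 640 in no Myc. It was 4.82-fold higher in high (2.27 ± 0.24, limma, adjusted p = 0.000289) and 3.72-fold higher in low Myc (1.90 ± 0.25, adjusted p = 0.00123), with each array left out in turn too. ME1, a source of NADPH for fatty acid synthesis, was 3.67-fold higher in high than in no Myc (1.87 ± 0.33, adjusted p = 0.00334). ACAT2, which feeds acetyl-CoA into the mevalonate route, was 2.51-fold higher in low Myc (1.33 ± 0.32, adjusted p = 0.0189), lost without either no Myc array. SCD5 was lower in high (-0.32, adjusted p = 0.0331) and ACSL5, an acyl-CoA synthetase, in low Myc (-0.54, adjusted p = 0.0479), each called in under 5 of the 9 fits with an array left out, as was MBTPS1.

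Genes of sterol export, storage and lysosomal release (17 of 18 measured) were called higher in 3 cases and lower in 2 in high against no Myc, near the 14.2% and 9.0% of all genes. In low against no Myc 1 was higher and 3 lower, beside 11.3% and 8.55% of all genes, and the medians were -0.08 and -0.04. The counts are given as a description, and nothing is read from them about the list. SCARB1, a lipoprotein receptor, was 3.31-fold higher in high (1.73 ± 0.17, limma, adjusted p = 0.000255) and 3.44-fold higher in low Myc (1.78 ± 0.18, adjusted p = 0.000541). SOAT1, which esterifies cholesterol for storage, was 2.22-fold higher in high Myc (1.15 ± 0.22, adjusted p = 0.0052). NPC2, a lysosomal sterol carrier, was 2.21-fold lower in high Myc (-1.15 ± 0.19, adjusted p = 0.00255). OSBPL2 was lower in high Myc (-0.71, adjusted p = 0.0068), lost without no Myc replicate 2. ABCA1, the cholesterol exporter, was lower in low Myc (-1.48 ± 0.42, adjusted p = 0.0355), as was MYLIP (-0.74 ± 0.19, adjusted p = 0.0245). The ABCA1 call was lost without any of high Myc replicates 3 and 4, low Myc replicates 2 and 3 and the library labelled no Myc replicate 1, and that of MYLIP without either of these low Myc arrays or a no Myc array.

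Fatty acid oxidation, the opposing route, had 22 genes measured of 24. In high against no Myc 10 were called higher, 3 lower and 9 not at all, where 14.2% of all genes were called higher and 9.0% lower. In low against no Myc 9 were higher, 1 lower and 12 not called (11.3% and 8.55% of all genes), and in high against low Myc 3 were higher and 0 lower (2.33% and 1.27%). The medians were 0.41, 0.37 and -0.05. HADH, a mitochondrial oxidation enzyme, was 4.22-fold higher in high (2.08 ± 0.22, limma, adjusted p = 0.000319) and 3.25-fold higher in low than in no Myc (1.70 ± 0.23, adjusted p = 0.00146). ECI2, an enoyl-CoA isomerase, read 451 to 616 in high, 163 to 258 in low, and 162 and 160 in no Myc. It was 2.44-fold higher in high than in low Myc (1.29 ± 0.17, adjusted p = 0.00718) and 3.31-fold higher than in no Myc (1.73 ± 0.19, adjusted p = 0.000394), with each array left out in turn too. CPT1A, the carnitine acyltransferase of mitochondrial entry, was higher in high than in low Myc (1.08 ± 0.23, adjusted p = 0.039) in 2 of the 9 fits with an array left out. PPARGC1B, a coactivator of oxidative genes, was 3.47-fold higher in low than in no Myc (1.80 ± 0.25, adjusted p = 0.00151). PPARA, a receptor that activates oxidation genes, was lower in high (-0.95 ± 0.14, adjusted p = 0.00108) and in low Myc (-0.68 ± 0.14, adjusted p = 0.00943; lost when the library labelled no Myc replicate 1 was left out), and ACADVL was lower in high Myc (-0.88 ± 0.17, adjusted p = 0.00515; lost without no Myc replicate 2).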

How the data were processed

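Total RNA of P493-6 cells was taken with Qiagen RNeasy and given a biotin label, per the labels' protocols. The authors deposited 1 intensity per probe set on a linear scale (array medians 75.3 to 80.3), summarised by RMA per the submitters' processing notes; its version, and a genome build, are not given in the sources used here. As RMA makes array distributions alike, it hides changes in total RNA per cell. The deposited values did not share exactly 1 distribution. Repeating quantile normalization moved ACLY in high against no Myc from 0.95 to 0.74, and ELOVL5 from -0.41 to -0.61. Names came from GEO's annotation of the platform, in which 41097 probe sets had 1 symbol, 1801 several and 11777 none, and only the first kind was named. The 28 measured members and all other genes were represented by the probe set of highest mean log2 intensity over the 9 arrays, giving 19775 genes; 19 members had more than 1 probe set.

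Log2 values computed from the deposited intensity were fitted in 1 model over the 3 groups with limma 3.58.1 in R 4.3.3 (lmFit and eBayes with no trend, on 6 residual degrees of freedom). Tests were two-sided, adjusted by Benjamini-Hochberg over all genes (or all probe sets) of a comparison, and called at 0.05. The procedure was tested on simulated data with independent noise per gene and array. These data do not cover arrays that deviate together over many genes. The number of arrays limits the precision. No detection calls were used.

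Every member may be named; values on each array are given for the regulators and for members called with a log2 difference of at least 1, and STARD4 and TM7SF2 were added after their values were seen. Of each further list, up to 4 called genes per comparison are named, the 2 most positive and 2 most negative. Members and lists were chosen with earlier results of these data known. Alternatives were quantile normalization repeated, arrays centred on their median, an offset of 16, a mean log2 of at least 5, the probe-set median per gene, array weights, a robust trended prior, a fit of only the 2 groups compared, a replicate block, stricter thresholds, and each of 9 arrays left out.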

Additional observations from a re-analysis of the deposited data

Results flagged for a closer look

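In high Myc, the group with 4 arrays, 1 array stood apart from the other 3 for 7 of the 29 genes examined (the 28 members and MYC), by a gap test that chance passes in about 1 of 20 groups. High Myc replicate 2 was high in STARD4 (3252, others 492 to 626), INSIG1 (1401, others 957 to 1021) and DHCR7 (827, others 555 to 587). High Myc replicate 4 was high in FASN (2288, others 1837 to 1869) and FADS2 (904, others 668 to 675). FABP5 was high on replicate 3 (6626, others 5850 to 5925), and MVD, which decarboxylates mevalonate diphosphate, was low on replicate 1 (119, others 172 to 185). Low and no Myc have too few arrays for this test.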

How the results depend on the processing

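Over 9 alternatives other than thresholds, the 22 calls of members gave 198 values, of which 181 kept direction and call, 17 lost the call and 0 reversed; with arrays left out, 151 of 198 were kept, 47 lost and 0 reversed. In high against no Myc, the 11 higher members were 7 at an adjusted p under 0.01 and 6 to 13 with an array left out, and the 0 lower members were 2 with quantile normalization repeated, 2 with the median of probe sets and 0 to 1 with an array left out. In low against no Myc, the 9 higher members were 14 with array weights, 5 with only the 2 groups compared, 3 at an adjusted p under 0.01 and 2 to 15 with an array left out, and the 0 lower members were 1 with quantile normalization repeated and 2 with the median of probe sets. Between high and low Myc, the 1 higher member was 0 with arrays centred, 2 with array weights, 0 with only the 2 groups compared, under either stricter threshold (an adjusted p under 0.01, or at least 2-fold), and 0 to 2 with an array left out; the 1 lower member was 0 with only the 2 groups compared and under either stricter threshold, and 0 to 2 with an array left out. The cause was not tested. Of all genes called between high and low Myc, 64.6% were higher, and 51.4% with quantile normalization repeated. Arrays numbered 1 deviated together (correlations 0.25, 0.45 and 0.47). Those numbered 2 (0.03, 0.07 and 0.10) and 3 (-0.31) did not, and other pairs ranged from -0.47 to 0.44. Deviations of the 2 no Myc arrays from their mean are mirror images, so -0.47 only repeats 0.47. The check therefore cannot decide whether the numbers pair the arrays, and the main fit used no pairing. With the replicate block, members called higher were 9, 7 and 0 in the 3 comparisons, and 0 were lower between high and low Myc. The block ended the calls of LSS (adjusted p = 0.0688 in high and 0.0883 in low), ELOVL6 (0.0663) and ACACA (0.0615 in low) against no Myc, and of SCAP (0.138) and TM7SF2 (0.113) between high and low Myc. A left-out no Myc array leaves that group with 1, which is assumed to vary like the others. Members near background carry no statement on presence.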
